A study of Mus musculus with 3 samples.

Results

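The 9 genes described here, *T*, *Eomes*, *Mixl1*, *Mesp1*, *Mesp2*, *Tbx6*, *Msgn1*, *Evx1* and *Gsc*, encode transcription factors of the mouse primitive streak. They were chosen by name, and all 9 were found by symbol among the 17633 genes that had a read somewhere in the series. The samples are the 3 germ layers of E7.5 embryos of the ICR strain, without treatment or mutation, and each layer (endoderm, mesoderm or epiblast) was sequenced as 1 library. The RNA of a library was pooled over many embryos, and the layers were parted by enzyme digestion and hand dissection of the embryonic region. By the study's dissection, the epiblast sample holds both the prospective neuroectoderm and the primitive streak, so a streak gene in it cannot be placed in either.

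The primitive streak is the site at which epiblast cells leave the epithelium to form mesoderm and definitive endoderm. Nodal, Wnt, BMP and FGF signals induce it, and its cells switch on T-box factors (*T*, *Eomes*, *Tbx6*), basic helix-loop-helix factors (*Mesp1*, *Mesp2*, *Msgn1*) and homeobox factors (*Mixl1*, *Evx1*, *Gsc*). *T* and *Eomes* act early and in the streak itself, whereas the Mesp factors are switched on as cells become mesoderm, and *Tbx6* and *Msgn1* direct cells to the paraxial mesoderm.

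The libraries held 40.8 M to 42.7 M reads counted on genes. RPKM is the read number per unit of gene length and of library size, and levels of different genes are compared below on this scale only. There is no replicate of any germ layer, so no difference below has a replicate check, and the intervals given are 95% intervals that cover counting error only. The labels were checked against marker lists, which were chosen with earlier results of these data known, so the check is not independent. All 9 epiblast markers were higher in epiblast than in mesoderm, and 7 of the 9 were highest in epiblast. *Cdh1* (RPKM of 181 against 156) and *Fgf5* (6.64 against 6.32) were higher in endoderm than in epiblast. All 9 mesoderm markers were highest in mesoderm. Of the 8 definitive endoderm markers, 7 were highest in endoderm, and *Gata6* was highest in mesoderm. The 9 visceral endoderm markers summed to an RPKM of 6126 in endoderm against 5.24 in epiblast and 7.80 in mesoderm, so the library labelled endoderm also holds transcripts of visceral endoderm. In such bulk samples, fewer cells of a type and less RNA per cell cannot be told apart.

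Each of the 9 genes had reads in all 3 libraries. Of the 9, 8 reached RPKM>5 in at least 1 library, as did 9135 of all 17633 genes. RPKM was highest in epiblast for 6 of the 9 and in mesoderm for the other 3, and it was lowest in endoderm for 6. Among all genes that reached RPKM>5 in a library, 37.1% were highest in endoderm, 30.3% in mesoderm and 32.6% in epiblast. Together the 9 genes took 30036 reads in epiblast, 15742 in mesoderm and 10786 in endoderm. *T* alone made up 66.5% of these reads in epiblast, 74.0% in endoderm and 39.7% in mesoderm. The median RPKM of the 9 genes was 14.5 in epiblast, 10.002 in mesoderm and 2.79 in endoderm, beside medians over all listed genes of 4.22, 4.52 and 4.89. For 7 of the 9 genes the exact Poisson intervals of the levels were apart from layer to layer. The exceptions were *Msgn1*, whose epiblast and mesoderm intervals overlap, and *Gsc*. How many of all genes have intervals apart, or are lowest in endoderm, was not computed, so these counts have no background.

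**Figure D1:**
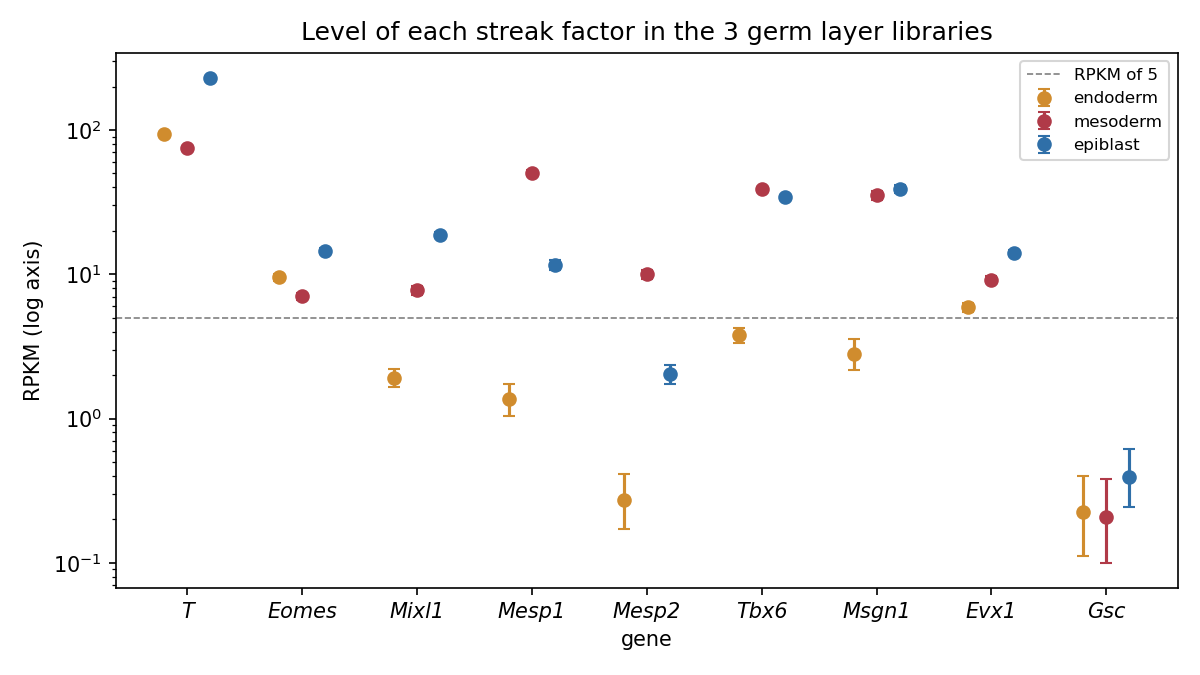
RPKM of each of the 9 genes (log axis) in the endoderm, mesoderm and epiblast libraries, 1 point per library with its 95% exact Poisson interval, which covers counting error only. *T* is the highest of the 9 in each library, the *Mesp1* and *Mesp2* points of mesoderm stand above those of epiblast, and the 3 points of *Gsc* lie under 0.5 RPKM with overlapping intervals.

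*T*, the Brachyury T-box factor needed for posterior mesoderm and notochord, lies on chromosome 17 from 8434423 to 8442496 on the plus strand of GRCm38. It had 19966 reads in epiblast, 6254 in mesoderm and 7984 in endoderm, with 99.71% to 99.95% of its length covered. Its RPKM was 228.5 in epiblast, 74.8 in mesoderm and 93.7 in endoderm. It ranked 305 among all genes in epiblast, 786 in endoderm and 1016 in mesoderm. *T* was 3.05-fold higher in epiblast than in mesoderm (interval 2.97 to 3.14). Mesoderm was the lowest layer for *T*, as it was for *Eomes*, and both genes were above mesoderm in endoderm. The 250 bases before the start site of *T* are shown because *T* had the highest level of the 9 genes. Capitals mark an E-box, CAGCTG, and the reverse complement of the Tcf/Lef letters CTTTGAA, since Tcf/Lef factors are the DNA-binding partners of Wnt signalling.
*T*, chr17:8434173-8434422, plus strand: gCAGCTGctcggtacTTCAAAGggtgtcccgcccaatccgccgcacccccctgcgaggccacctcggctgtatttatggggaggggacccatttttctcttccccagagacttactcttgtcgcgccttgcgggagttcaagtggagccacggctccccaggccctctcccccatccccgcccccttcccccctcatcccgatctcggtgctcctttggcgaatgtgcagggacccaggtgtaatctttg

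*Eomes*, the T-box factor needed for cells to leave the streak and for definitive endoderm, lies on chromosome 9 from 118478212 to 118486132. Its reads were 2310 in epiblast, 1069 in mesoderm and 1478 in endoderm. The RPKM of *Eomes* was 14.5 in epiblast, 7.01 in mesoderm and 9.51 in endoderm. The epiblast level was 2.07 times that of mesoderm, and the interval of 1.92 to 2.22 holds the fold of 2 that the criteria below require. An exon of *Eomes* overlaps a gene model on the opposite strand, *Gm33460*.

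*Mixl1*, a homeobox factor of the streak that acts in mesendoderm formation, lies on chromosome 1 from 180693043 to 180697034. It had 1832 reads in epiblast, 728 in mesoderm and 183 in endoderm. Its RPKM was 18.7 in epiblast, 7.77 in mesoderm and 1.92 in endoderm. Epiblast was 2.41-fold above mesoderm (2.21 to 2.63), and mesoderm was 4.06-fold above endoderm. The intervals of the ratio of epiblast to mesoderm overlap between *Mixl1* and *Eomes*. The endoderm level of *Mixl1*, however, was 10.2% of its epiblast level, against 65.6% for *Eomes* and 41.0% for *T*.

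*Evx1*, an even-skipped homeobox gene of the posterior streak, lies on chromosome 6 from 52313498 to 52318378. Its RPKM was 14.1 in epiblast (1735 reads), 9.17 in mesoderm (1078 reads) and 5.91 in endoderm (708 reads). The 3 levels were graded, and epiblast was 1.54-fold above mesoderm (1.43 to 1.66). The exons of *Evx1* overlap those of *Evx1os* on the opposite strand, whose RPKM was 6.38 in epiblast, 4.85 in mesoderm and 2.21 in endoderm. Whether the counting used strand is not given in the sources used here, so reads of the pair cannot be fully told apart.

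*Gsc*, the goosecoid homeobox factor of the anterior streak and prechordal plate, lies on chromosome 12 from 104471209 to 104473330. Its reads were 20 in epiblast, 10 in mesoderm and 11 in endoderm, which cover 40.5% to 46.6% of its length. The RPKM was 0.396 in epiblast, 0.207 in mesoderm and 0.223 in endoderm, at or below percentile 24.0 of the listed genes in each library. The Poisson intervals of the 3 levels overlap. The ratio of epiblast to mesoderm was 1.91 with an interval of 0.855 to 4.58, so that a difference between the layers was not detectable at this depth.

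*Tbx6*, a T-box factor that holds paraxial mesoderm cells to their fate, lies on chromosome 7 from 126781483 to 126785560. It had 2735 reads in mesoderm, 2521 in epiblast and 272 in endoderm. Its RPKM was 38.7 in mesoderm, 34.1 in epiblast and 3.77 in endoderm. The epiblast level was 0.882 of that in mesoderm (0.835 to 0.931). *Msgn1*, mesogenin 1, a basic helix-loop-helix factor of the presomitic mesoderm, lies on chromosome 12 from 11208360 to 11208972. Its RPKM was 35.1 in mesoderm (814 reads), 38.9 in epiblast (941 reads) and 2.79 in endoderm (66 reads). The ratio of epiblast to mesoderm was 1.11 (1.01 to 1.22), and the Poisson intervals of the 2 levels overlap. *Tbx6* and *Msgn1* were thus near equal in epiblast and mesoderm and about an order of magnitude lower in endoderm, at 9.75% and 7.95% of the mesoderm level. The deposited length of *Msgn1*, 567 bases, equals its coding length, while its annotated single-exon transcript has 613 bases. The bases before both annotated start sites of each gene are shown because these genes shared this pattern. Capitals mark the TATA box letters TATAAA in *Tbx6*, and in *Msgn1* the reverse complement of CTTTGAT and, after it, CTTTGAA.
*Tbx6*, chr7:126781233-126781482, plus strand: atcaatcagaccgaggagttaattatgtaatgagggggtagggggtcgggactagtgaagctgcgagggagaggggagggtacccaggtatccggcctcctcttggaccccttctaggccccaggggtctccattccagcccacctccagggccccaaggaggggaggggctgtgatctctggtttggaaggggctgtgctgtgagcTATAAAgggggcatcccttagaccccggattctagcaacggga
*Msgn1*, chr12:11208973-11209198, minus strand: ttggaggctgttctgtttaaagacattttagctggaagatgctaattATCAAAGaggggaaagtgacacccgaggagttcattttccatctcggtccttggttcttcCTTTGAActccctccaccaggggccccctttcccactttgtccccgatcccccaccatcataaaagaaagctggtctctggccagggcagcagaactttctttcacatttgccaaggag

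*Mesp1* and *Mesp2* are neighbouring basic helix-loop-helix genes on chromosome 7, with 16939 bases between their start sites and opposite directions of transcription. *Mesp1*, from 79792241 to 79793788, marks the earliest mesoderm, heart precursors included, and *Mesp2*, from 79810727 to 79813439, sets segment borders in the presomitic mesoderm. *Mesp1* had 2263 reads in mesoderm, 544 in epiblast and 62 in endoderm, with an RPKM of 50.5, 11.6 and 1.36. *Mesp2* had 791, 167 and 22 reads, with an RPKM of 10.002, 2.02 and 0.273. Both genes were highest in mesoderm and lowest in endoderm, with no overlap of the Poisson intervals between layers. Mesoderm was 4.35-fold above epiblast for *Mesp1* (3.96 to 4.78) and 4.95-fold for *Mesp2* (4.19 to 5.89), and these intervals overlap. Against endoderm, mesoderm was 37.2-fold higher for *Mesp1* and 36.7-fold higher for *Mesp2*.

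Per length, *Mesp1* stood above *Mesp2* by a ratio of 5.04 in mesoderm (4.65 to 5.48), 5.74 in epiblast (4.82 to 6.87) and 4.97 in endoderm (3.01 to 8.49). The intervals of this ratio overlap between the 3 libraries, so that a difference in the ratio was not detectable at this depth. The transcripts of this pair share an exact stretch of 42 bases in the coding part of exon 1, the longest shared by any 2 of the 9 genes. The next longest, between *Eomes* and *Tbx6*, has 17 bases. The stretch is shown because a read confined to it would match both genes. The deposited counts hold uniquely mapped reads, so such a read would not be counted for either gene. The stretch is written along the transcript in both.
*Mesp1*, chr7:79793148-79793189, minus strand: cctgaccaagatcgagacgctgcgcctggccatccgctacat
*Mesp2*, chr7:79811276-79811317, plus strand: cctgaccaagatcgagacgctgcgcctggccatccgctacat

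The bases before the *Mesp2* start site are shown beside those of the other genes because the pair moved together. They hold none of the 8 motifs searched and therefore no capitals. For *Mesp1* the start sites of RefSeq and GENCODE lie 198 bases apart, so that its window falls largely in the annotated first exon and is not shown.
*Mesp2*, chr7:79810477-79810726, plus strand: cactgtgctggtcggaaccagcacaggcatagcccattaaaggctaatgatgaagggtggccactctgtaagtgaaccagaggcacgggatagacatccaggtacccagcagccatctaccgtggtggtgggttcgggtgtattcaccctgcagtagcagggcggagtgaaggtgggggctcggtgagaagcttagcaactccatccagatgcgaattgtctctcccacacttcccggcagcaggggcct

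To compare the epiblast, which holds the streak, with the mesoderm that has left it, the criteria of the study were applied to all genes, with RPKM>5 in at least 1 of the 2 libraries, Fold Change>2 and FDR<0.001. The FDR is that of the Audic and Claverie exact test of the reads, with Benjamini-Hochberg adjustment over 17100 genes. This test compares 2 libraries and not the germ layers as conditions. Of the 9 genes, 5 were called, *T*, *Mixl1* and *Eomes* higher in epiblast and *Mesp1* and *Mesp2* higher in mesoderm. Of all genes tested, 5.04% were called, 2.45% higher in epiblast and 2.58% higher in mesoderm, and of the genes with RPKM>5 in either library 10.3% were called. The 9 genes had a median log2 ratio of epiblast to mesoderm of 0.62, beside 0.00057 over all genes tested, and of 0.21 when 1 RPKM was added to each level. They had a median absolute log2 ratio of 1.05, beside 0.43. The order of the 8 genes with RPKM>5 ran from *T* through *Mixl1*, *Eomes*, *Evx1*, *Msgn1*, *Tbx6* and *Mesp1* to *Mesp2*. Neighbours in this order had intervals apart from each other, except *Mixl1* with *Eomes* and *Mesp1* with *Mesp2*.

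**Figure D2:**
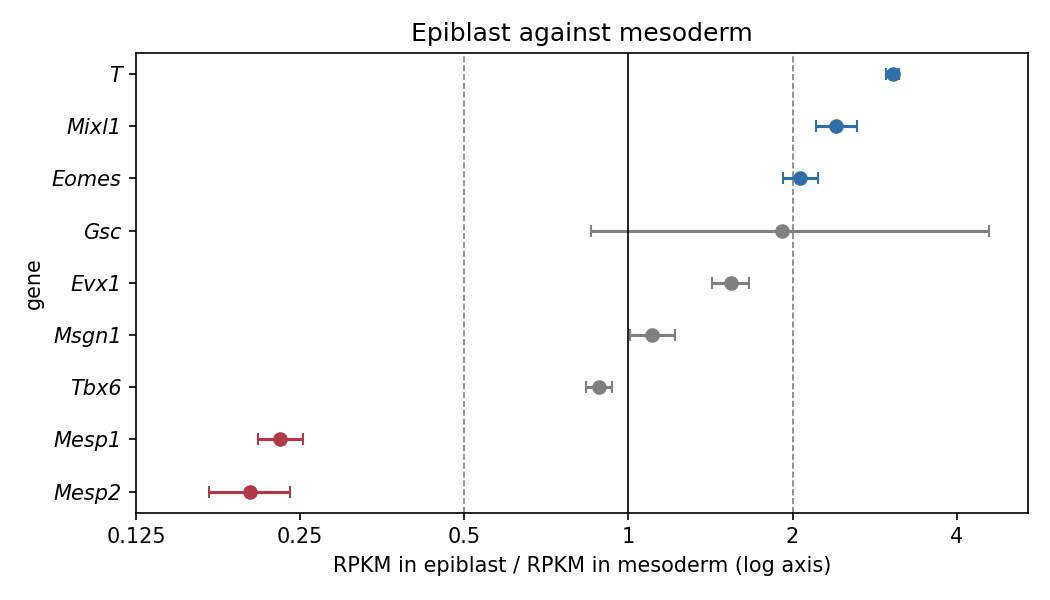
Ratio of RPKM in epiblast to RPKM in mesoderm for each of the 9 genes (log axis), with 95% exact intervals from the reads, which cover counting error only. Blue and red points are genes called higher in epiblast and in mesoderm, grey points were not called, and dashed lines mark a fold of 2 either way. *T* stands at 3.05, *Tbx6* and *Msgn1* lie beside 1, and *Mesp1* and *Mesp2* lie at 0.230 and 0.202.

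The 4 genes that were not called failed on different criteria. *Evx1* (FDR = 1.26e-28, Audic and Claverie exact test) and *Tbx6* (FDR = 1.37e-05, same exact test) passed the FDR but not the fold. *Msgn1* passed neither the fold nor the FDR (FDR = 0.0569, exact test), and *Gsc* passed none of the 3 criteria (FDR = 0.135, exact test). The call of *Eomes* was lost when the libraries were scaled to the same RPKM total, with a fold of 1.99, and with a pseudocount of 1 RPKM, with a fold of 1.93. When a biological coefficient of variation of 0.2 was assumed in edgeR's exact test, *Mesp1* and *Mesp2* were the only genes of the 9 called, as with Fold Change>4. With 0.4, 0 were called by that exact test, and 2 had an unadjusted p under 0.05. Of all genes tested, 1.95% were called with Fold Change>4, 2.59% with a coefficient of 0.2 and 0.351% with 0.4. Most calls of any gene were thus lost with 0.4. The coefficient of these samples is not known.

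The level of the streak factors in the layer where they were lower was set beside that of layer markers. In mesoderm, *T* stood at 32.7% of its epiblast RPKM, *Mixl1* at 41.5% and *Eomes* at 48.4%. The 9 epiblast markers stood there at a median of 6.90%, from 0.656% for *Utf1*, a chromatin factor of pluripotent cells, to 36.4% for *Otx2*, a homeobox factor of the anterior embryo. In epiblast, *Mesp1* stood at 23.0% and *Mesp2* at 20.2% of the mesoderm RPKM. The 9 mesoderm markers stood there at a median of 13.7%, from 1.40% for *Hand2* to 36.9% for *Snai1*, which represses E-cadherin in cells that leave the streak. All 18 markers had reads in both libraries. The part of carried-over cells in these levels was not tested.

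Between endoderm and mesoderm, 5 of the 9 genes were called, *Mixl1*, *Mesp1*, *Mesp2*, *Tbx6* and *Msgn1*, and all 5 were lower in endoderm. Of all genes tested in this pair 11.9% were called, 7.44% higher in endoderm and 4.41% higher in mesoderm, and of those with RPKM>5 in either library 23.0%. *T* and *Eomes* were 1.25-fold (1.21 to 1.29) and 1.36-fold (1.25 to 1.47) higher in endoderm than in mesoderm and were not called. With an assumed coefficient of 0.4 in edgeR's exact test, *Mixl1*, *Tbx6* and *Msgn1* lost their calls in this pair, and *Mixl1* also lost it with RPKM>10. Of all genes tested in the pair, 2.25% were called with 0.4 and 8.29% with RPKM>10. Between endoderm and epiblast 6 of the 9 were called, *T*, *Mixl1*, *Mesp1*, *Tbx6*, *Msgn1* and *Evx1*, all lower in endoderm. The background of that pair was 12.6% of all genes tested, 8.02% higher in endoderm and 4.58% higher in epiblast, and 24.6% of those with RPKM>5 in either library. *Mesp2*, at 13.5% of its epiblast level in endoderm, was not called because neither library reached RPKM>5. *T* and *Evx1* lost their calls in this pair with Fold Change>4 and with a coefficient of 0.2. With 0.4 all 6 calls were lost, while 5 genes had an unadjusted p under 0.05 in edgeR's exact test. Of all genes tested in this pair, 5.20% were called with Fold Change>4, 7.15% with 0.2 and 1.92% with 0.4. The median log2 ratio of the 9 genes was -2.02 for endoderm to mesoderm and -2.89 for endoderm to epiblast, beside -0.10 over all genes tested in each pair. With 1 RPKM added to each level these medians were -1.59 and -1.28. These comparisons share libraries with each other and are not independent.

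By their endoderm share, the 8 genes with RPKM>5 fell apart into 3 genes with 20.2% to 30.7% of the summed RPKM of the 3 layers (*Evx1*, *T* and *Eomes*) and 5 genes with 2.14% to 6.75% (*Mesp1*, *Mesp2*, *Msgn1*, *Tbx6* and *Mixl1*). Beside the endoderm level of *T* stand the genes of the node and axial mesendoderm, which also express *T* in the embryo. Of the 12 listed, 11 had reads, and all 11 were highest in endoderm. *Dand5* (2.52 against 2.25 for epiblast) and *Lhx1* (15.3 against 13.0 for mesoderm) were so by little. The RPKM of the 11 summed to 297.1 there, against 75.4 in mesoderm and 27.3 in epiblast. *Cer1* alone held 137.9 of the endoderm sum and 47.4 of the mesoderm sum. It is also a definitive endoderm marker, as are *Foxa2* and *Hhex*. Unlike the sum, *Noto*, *Foxj1*, *Shh*, *Chrd*, *Foxa2* and *Dand5* were higher in epiblast than in mesoderm, and the rest were lower. The 9 epiblast markers stood in endoderm at a median of 13.2% of their epiblast RPKM, from 1.06% for *Pou3f1* to 116.5% for *Cdh1*, which both tissues are known to express. The 9 mesoderm markers stood there at a median of 2.94% of their mesoderm RPKM. The part of either in the endoderm level of *T* was not tested.

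**Figure D3:**
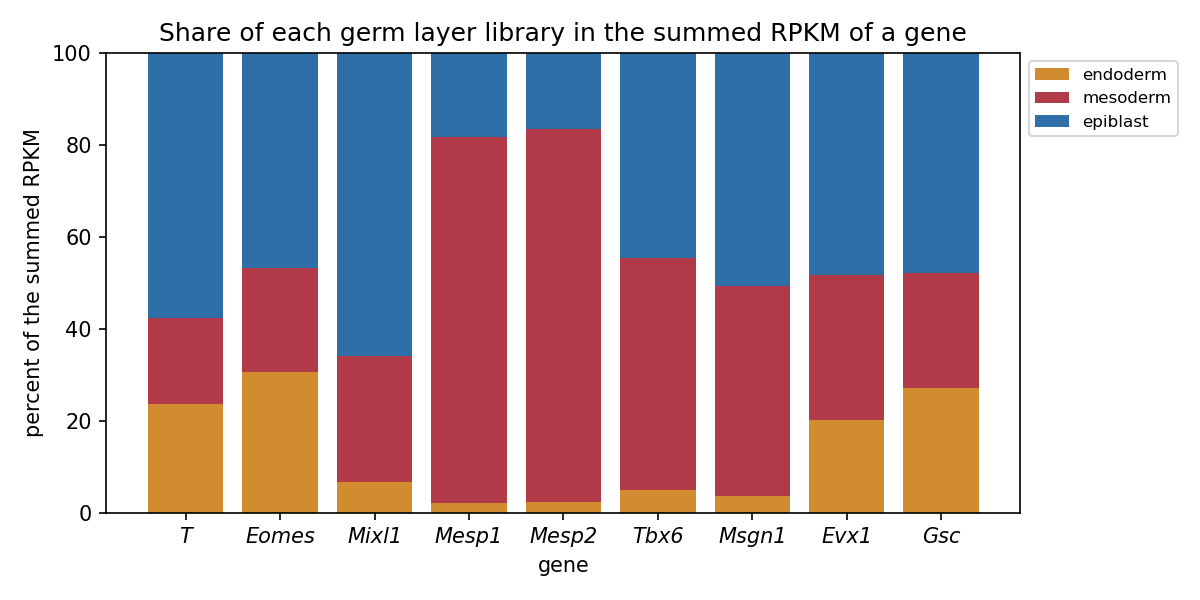
Percent of the summed RPKM of each of the 9 genes found in the endoderm, mesoderm and epiblast libraries, with bars that add up to 100. *Mesp1* and *Mesp2* have 79.6% and 81.4% of their sum in mesoderm, and *Evx1*, *T*, *Gsc* and *Eomes* have the larger endoderm shares, from 20.2% to 30.7%.

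Of the 9 genes, *Mixl1* and *Mesp1* were called in all 3 pairs of germ layers, as were 1.99% of the genes that reached RPKM>5 in a library. *T*, *Mesp2*, *Tbx6* and *Msgn1* were called in 2 pairs, *Eomes* and *Evx1* in 1 and *Gsc* in 0. Of the genes that reached RPKM>5 in a library, 20.04% were called in 2 pairs, 9.49% in 1 and 68.5% in 0.

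Within a library, *T* stood above *Eomes* by a ratio of 15.8 in epiblast (15.1 to 16.5), 10.7 in mesoderm (9.997 to 11.39) and 9.85 in endoderm (9.32 to 10.4). The ratio of *T* to *Tbx6* was 6.70 in epiblast, 1.93 in mesoderm and 24.8 in endoderm. In mesoderm, the ratio of *Mesp1* to *T* was 0.674, against 0.0508 in epiblast and 0.0145 in endoderm. *Tbx6* was above *Msgn1* by 1.10 in mesoderm (1.02 to 1.19) and below it, at 0.878, in epiblast (0.814 to 0.947), and these intervals are apart. Which of the 2 genes is the higher in a library rests on the deposited length of *Msgn1*, whereas the difference of the ratio between the libraries does not.

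The other genes of these families and pathways were taken from lists of known genes, which may hold some of the 9 and share genes with each other. Between epiblast and mesoderm, 2.45% of all genes tested were called higher in epiblast and 2.58% higher in mesoderm. Of the genes with RPKM>5 in either library, 10.3% were called. The counts of each list stand beside these shares. Among the 17 T-box genes, 2 were called higher in epiblast, *T* and *Eomes*, and 3 higher in mesoderm. The 3 were *Tbx3*, *Tbx20* and *Tbx1*. *Tbx20*, a factor of the heart, had an RPKM of 11.5 in mesoderm and 0.739 in epiblast. *Tbx1*, known from the pharyngeal mesoderm, had 7.07 and 0.553. *Tbx3* had 16.8 in mesoderm and 3.62 in epiblast, but 37.1 in endoderm, and its exons overlap an antisense gene, *Tbx3os1*. The median log2 ratio of epiblast to mesoderm over the 16 T-box genes with reads in either library was -0.27, beside 0.00057 over all genes tested.

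Of the 10 basic helix-loop-helix factors of mesoderm, 7 were called higher in mesoderm and 0 higher in epiblast, with a median log2 ratio of epiblast to mesoderm of -3.62. *Hand1* had an RPKM of 221.7 in mesoderm and 33.2 in epiblast, and *Twist1* had 53.2 and 2.36. *Msgn1*, with near equal levels in both layers, and the low *Twist2* and *Scx* were the 3 not called.

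Of the 23 genes of the inducing signals, 2 were called higher in epiblast and 2 higher in mesoderm, and the median log2 ratio of epiblast to mesoderm was 0.06. The Wnt ligands *Wnt3a* and *Wnt8a* were each 10.1-fold higher in epiblast, with an RPKM of 13.9 and 25.0 there. *Foxh1*, the DNA-binding partner of Smad2 in Nodal signalling, had 252.9 in mesoderm and 125.4 in epiblast. Its fold of 2.02 was barely over the required fold of 2. The ligand *Bmp4*, which shares exon bases with the opposite-strand gene *Gm15217*, had 33.6 in mesoderm and 2.69 in epiblast. The other 19 genes were not called. *Nodal*, named here after its values were seen, was among them because it stayed under RPKM>5, with 197 reads in epiblast, 13 in mesoderm and 413 in endoderm (RPKM of 2.20, 0.152 and 4.74).

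The list of presomitic mesoderm genes and targets of the streak factors, with 22 genes, had 4 called higher in epiblast and 11 higher in mesoderm, with a median log2 ratio of epiblast to mesoderm of -0.99. Higher in epiblast with the highest levels were *Nkx1-2*, with an RPKM of 67.8 against 6.64, *Cdx1*, with 48.7 against 15.9, and *Sp8*, with 13.4 against 0.984. *Cdx1* is a caudal homeobox factor of the posterior embryo. Higher in mesoderm were *Snai1*, with 67.3 against 24.9, *Foxc2*, with 55.5 against 1.76, and the Notch ligand *Dll3*, with 43.4 against 17.5.

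Of the 15 genes known from the Mesp1 lineage, 14 were called higher in mesoderm and 0 higher in epiblast, with a median log2 ratio of epiblast to mesoderm of -4.07. *Hand1* was the highest of them, followed by *Myl7*, a myosin light chain of the heart, with an RPKM of 103.3 in mesoderm and 7.97 in epiblast, and by *Snai1*. *Zeb2*, with 10.004 and 5.13, was the gene not called. Between these layers *Mesp1* had a log2 ratio of -2.12 and *Mesp2* of -2.31.

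Of the 12 node and axial mesendoderm genes, 1 was called higher in epiblast and 3 higher in mesoderm, while the median log2 ratio of epiblast to mesoderm over the 11 with reads was 0.89, towards epiblast. *Foxj1*, a factor of motile cilia, had an RPKM of 10.6 in epiblast and 2.25 in mesoderm. *Cer1*, *Lhx1* and *Hhex*, which are known from the anterior mesendoderm, had 47.4, 13.0 and 5.74 in mesoderm and 0.659, 2.28 and 0.727 in epiblast. Against endoderm, 0 genes of this list were called higher in mesoderm or epiblast, and 7 and 9 were called higher in endoderm in the 2 pairs. Of all genes tested, 7.44% were called higher in endoderm than in mesoderm and 8.02% higher in endoderm than in epiblast. Of the lists of other tissues, the 8 definitive endoderm markers had 2 genes called higher in epiblast and 3 in mesoderm, the 9 trophoblast markers had 1 in each direction, and the visceral endoderm and primitive erythroid markers had 0.

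**Figure D4:**
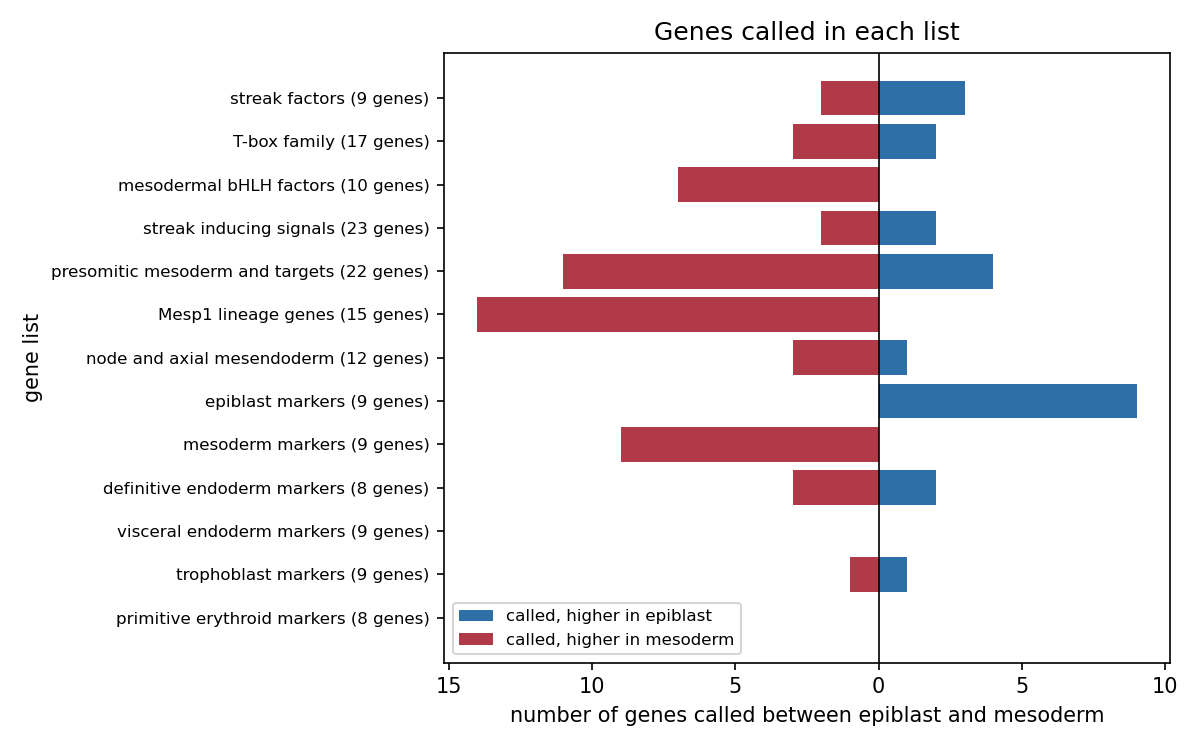
Number of genes called higher in epiblast (blue, to the right) and in mesoderm (red, to the left) in each gene list, with the number of genes in the list in brackets. Of all genes tested, 2.45% were called higher in epiblast and 2.58% higher in mesoderm. The 15 genes of the Mesp1 lineage and the 10 basic helix-loop-helix factors have calls to the mesoderm side alone, 14 and 7, while the 9 streak factors have 3 to the epiblast side and 2 to the mesoderm side. The lists share genes. *Mesp1* and *Mesp2* are counted both in the 7 and in the 2, and *Hand1* and *Hand2* both in the 14 and in the 7.

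The genes with the most similar pattern were sought by the Euclidean distance between the shares of summed RPKM over the 3 libraries, among 9134 other genes that reached RPKM>5. With 3 libraries such a distance rests on few values, and it is given as a description. Nearest to *T* were *Prom1*, *Zfp219* and *Dgka*, at 1.10 to 2.27 percentage points, and 15 genes lay within 5 points of it. Nearest to *Mesp1* were *Cdh11* (0.359 points), *6230427J02Rik* and *Fgf3*, and the latter pair of genes was also nearest to *Mesp2*. *Mesp2* itself lay 2.58 points from *Mesp1*. *Tbx6* had *Meis2*, *Arrb1* and *Fndc3c1* nearest, with 13 genes within 5 points. Nearest to *Eomes* were *H2-Q4*, *Spnb3* and *Ptpn6*, to *Mixl1* *Lgi2*, *Cnn1* and *Coro2b*, and to *Evx1* *Pfkl*, *Msh6* and *Bahcc1*. None of the 8 genes compared had another of the 9 among its nearest 3. Around *Evx1*, 114 genes lay within 5 points, the most for any of the 8 genes compared.

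RefSeq promoter windows of GRCm38.p6, which hold 250 bases before and 50 after a start site, were matched for 8 of the 9 genes, all but *Mixl1*. They were searched on both strands for 8 motifs, and a match describes letters in the window and not a bound site. The Tcf/Lef letters CTTTGAA were found in *T*, *Msgn1* and *Mesp1* and in 5.14% of all 32851 windows. The other Tcf/Lef letters, CTTTGAT, were found in *Msgn1* and *Mesp1* and in 3.73% of windows. Both Tcf/Lef matches of *Mesp1*, 73 and 31 bases before its RefSeq start site, lie after its GENCODE start site and in its first exon. The T-box letters TCACACC were found in *Mesp1* alone, after its RefSeq start site, and in 3.98% of windows. The E-box CAGCTG was found in *T* and in 16.3% of windows, and the Smad letters CAGACA in *Evx1* and in 21.04%. TATAAA was found in *Tbx6* and *Gsc* and in 13.6% of windows. The E-box CATATG (3.92% of windows) and the homeobox letters TAATCC (7.06%) were found in none of the 8. CTTTGAA and CTTTGAT differ in their last letter alone and describe related sites.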

How the data were processed

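For each germ layer the authors sequenced 1 paired-end library (Illumina HiSeq 2000) and removed adapters and low-quality reads. The deposited read count per gene holds uniquely mapped reads and is not normalized. Beside it the authors deposited each gene's RPKM, its length in bases and the percent of that length covered by reads. The submitters' processing notes list TopHat, mm10 and mm9. The counting program, its annotation and its use of strand are not given in the sources used here.

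RPKM values were used as deposited. With 1 library per germ layer, the quasi-likelihood test of edgeR could not be fitted, and genes were called by the study's criteria in each pair of libraries. Intervals of a ratio are 95% exact binomial intervals of the reads, and those of a level are exact Poisson intervals. The named genes are the 9 members, up to 3 called genes of highest RPKM per list and direction, markers given beside a result and the 3 genes of nearest pattern per member. Those of *Msgn1* are not reported here. The 9 genes and the 12 other lists were chosen with earlier results of these data known. Of 137 listed genes, 2 were matched through older symbols and 5 were not listed in any library. Gene positions are from GENCODE M21 (GRCm38). The calls were tested on simulated data. Alternatives covered the RPKM, fold, FDR and read criteria, pseudocounts, 4 scalings and edgeR's exact test with an assumed coefficient of variation. A planned comparison of protein sequences was not made. Python 3.11.15, SciPy 1.17.1, R 4.3.3, edgeR 4.0.16 and DESeq2 1.42.0 (for size factors) were used.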

Additional observations from a re-analysis of the deposited data

How the results depend on the processing

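The median ratios of the 9 genes in the 3 pairs, and their folds between epiblast and mesoderm, kept their direction under each pseudocount and scaling tried. Folds of single genes in the pairs with endoderm were not recomputed. Between epiblast and mesoderm, the 5 calls were held by the same genes in 9 of 14 alternatives. Fold Change>4 left 2, *Mesp1* and *Mesp2*, as did edgeR's exact test at an assumed coefficient of variation of 0.2, and a coefficient of 0.4 left 0, with 2 genes at an unadjusted p under 0.05. Between endoderm and mesoderm the genes were the same in 12 of 14, and a coefficient of 0.4 left 2. Between endoderm and epiblast they were the same in 10 of 14, and a coefficient of 0.4 left 0, with 5 genes at an unadjusted p under 0.05. Over all genes, a coefficient of 0.2 took the calls between epiblast and mesoderm from 861 to 443, and 0.4 took them to 60. A coefficient of 0.4 took those between endoderm and mesoderm from 2038 to 387, and those between endoderm and epiblast from 2176 to 331. A pseudocount of 1 RPKM moved the median log2 ratio of the 9 genes to 0.21 for epiblast to mesoderm, -1.59 for endoderm to mesoderm and -1.28 for endoderm to epiblast, as it shrinks the ratios of low genes. TMM scaling raised the median log2 ratio over all genes by 0.11 in both pairs with endoderm. The counts of *Gsc* limit what can be said of it. No paired analysis was possible because each germ layer has 1 library, and for the same reason no library could be left out.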
